A study of Mus musculus with 6 samples.

Results

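This is an account of 9 genes of the Nodal pathway in mouse gastruloids, three-dimensional aggregates of embryonic stem cells (ESCs) that elongate and form the derivatives of the germ layers in culture. The genes are the ligands *Nodal* and *Gdf3*, the co-receptor *Cripto* (also named *Tdgf1*), the receptor *Acvr2b*, the nuclear effector *Foxh1*, and the inhibitors *Lefty1*, *Lefty2*, *Cer1* and *Smad7*. They were chosen by name, with earlier results of these data known, and each was found by its Ensembl identifier among the 35565 genes of the deposited table. All 9 passed the filter on low counts, as did 15110 genes in all. The study compared Control (NT) gastruloids, made from ESCs carrying a non-targeting construct, with *T-UCstem1* KD-1 gastruloids, made from 1 ESC clone with a stable knockdown of the long non-coding RNA *T-UCstem1*. Both lines derive from the TBV2 129/SvP ESC line, both received a pulse of CHIR99021, which activates Wnt signalling by blocking the kinase GSK3, and both were collected at day 5 after aggregation. There were 3 bulk RNA-seq libraries per group. Since each group came from 1 line, differences between the lines that do not depend on *T-UCstem1* cannot be told apart from those that do. The p-values measure the spread between these libraries only. *T-UCstem1* was not measured here, so the knockdown was not checked in these libraries.

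Nodal is a secreted ligand of the TGFβ superfamily. Together with its co-receptor Cripto, it binds activin receptors of type I and type II, which phosphorylate SMAD2 and SMAD3. These join SMAD4 and partners such as FOXH1 on target genes, among them *Nodal* itself and its secreted inhibitors *Lefty1*, *Lefty2* and *Cer1*, so that the pathway drives its own antagonists. In the early embryo this circuit patterns the primitive streak, mesendoderm and body axes, and in pluripotent cells several of its genes are already active.

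Library totals were 20982249, 34694406 and 56674906 counts in Control (NT) and 41180012, 42407550 and 85561026 counts in KD-1. A library is named here by its depth within its group, because the column names could not be tied to the replicate numbers of the labels. Levels are CPM, read counts scaled to a common library total, after TMM scaling, which corrects for library composition. A gene was called higher or lower when edgeR's quasi-likelihood test gave an adjusted p under 0.05 and the fold change was over 1.5 in either direction. By this rule 37.8% of all tested genes were called, 19.7% as higher and 18.1% as lower. The adjusted p alone was passed by 63.5% of all tested genes, and the libraries of the groups did not overlap for 70.6% of all tested genes. Of the 9 pathway genes, 6 were called, and the same 6 passed the adjusted p alone. *Cripto*, *Gdf3* and *Smad7* were higher in KD-1 and *Cer1*, *Lefty1* and *Lefty2* were lower, and these same genes were those whose groups did not overlap. *Nodal*, *Foxh1* and *Acvr2b* were not called. Over the 9 genes the log2 fold change had a median of -0.25, against -0.01 over all tested genes. In bulk libraries, fewer cells of a type and less RNA per cell cannot be told apart.

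**Figure D1:**
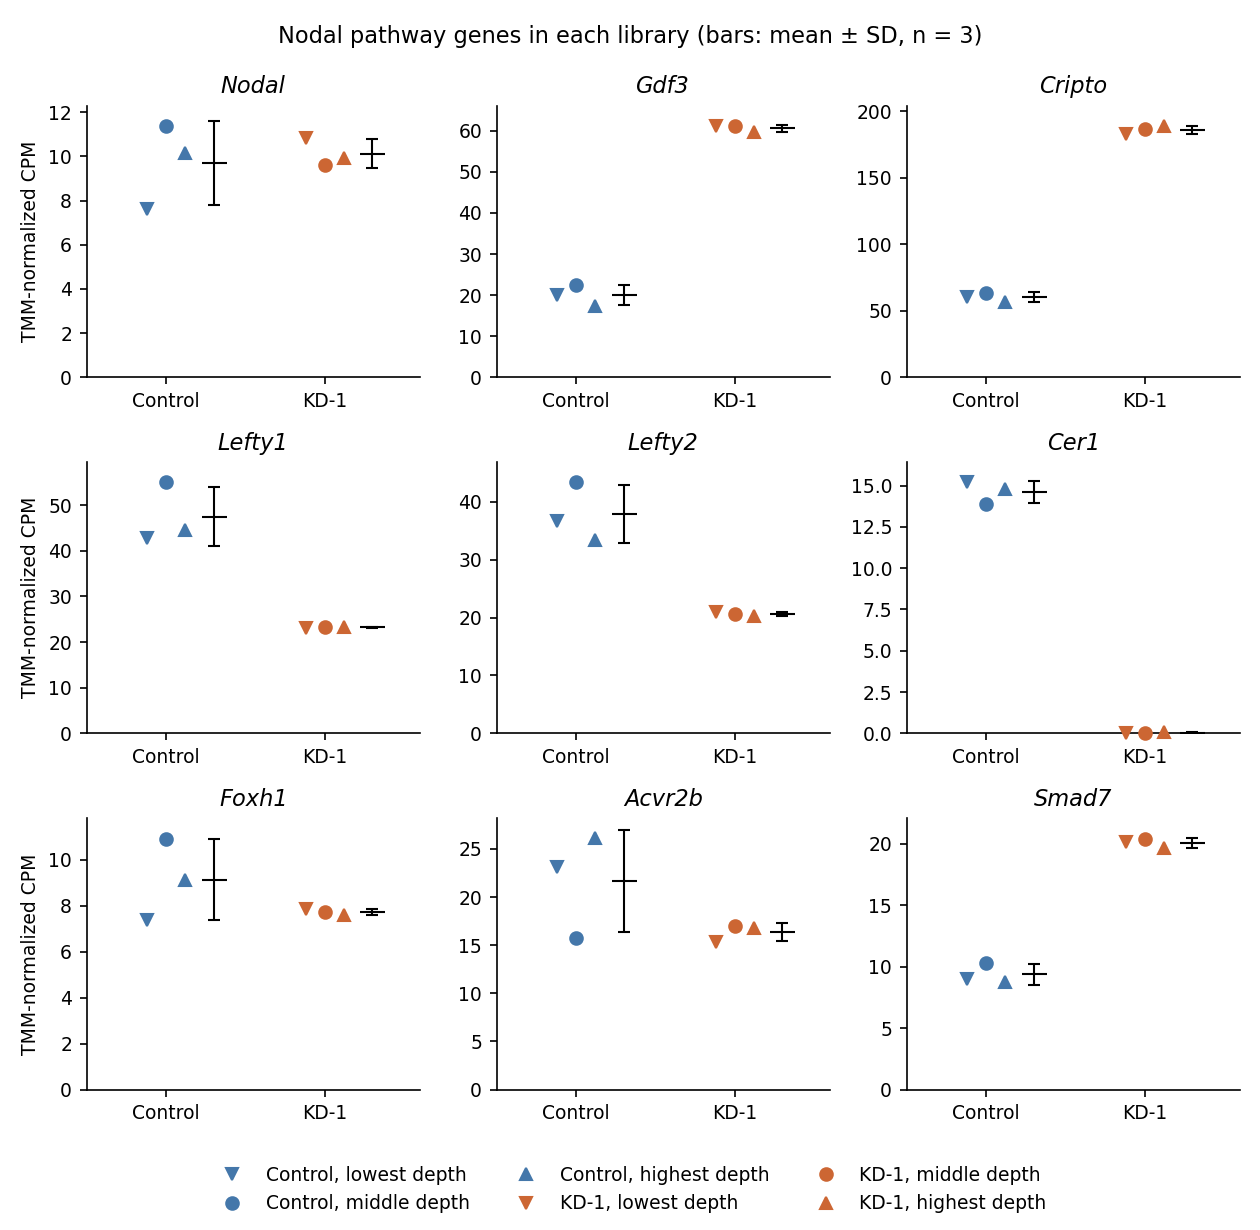
Levels of the 9 genes in each library, as TMM-normalized CPM on linear axes that start at 0. Each coloured point is 1 library, with its shape giving its depth within its group, and black bars give the mean ± SD of 3 libraries. *Gdf3*, *Cripto* and *Smad7* lie higher and *Lefty1*, *Lefty2* and *Cer1* lower in every KD-1 library, while *Nodal*, *Foxh1* and *Acvr2b* overlap.

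*Nodal* (ENSMUSG00000037171, chr10:61253587-61261117, plus strand, GRCm39 with GENCODE vM39, as for all gene positions here) encodes the ligand that gives the pathway its name. Its level was 7.62, 11.4 and 10.2 CPM in the Control (NT) libraries of lowest, middle and highest depth, and 10.9, 9.61 and 9.94 CPM in the KD-1 libraries in the same order. All 3 KD-1 values lay within the range of the Control (NT) values. The means were 9.72 ± 1.91 CPM and 10.1 ± 0.645 CPM (SD, n = 3), with a log2 fold change of 0.05 (SE 0.14, 95% interval -0.28 to 0.37, adjusted p = 0.79 by edgeR's quasi-likelihood test). The interval lies within 1.5-fold in both directions. The sign rested on the shallowest Control (NT) library, without which the log2 fold change was -0.087.

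*Gdf3* (ENSMUSG00000030117, chr6:122582317-122587197, minus strand) encodes another ligand of the TGFβ superfamily, which is expressed in pluripotent cells and uses the same co-receptor. It stood at 20.0, 22.5 and 17.4 CPM in Control (NT) and at 61.2, 61.1 and 59.7 CPM in KD-1. Every KD-1 library lay above every Control (NT) library, and the KD-1 libraries were close to each other. The log2 fold change was 1.61 (SE 0.09, adjusted p = 1.8e-06, edgeR's quasi-likelihood test), from 20.0 ± 2.52 to 60.7 ± 0.866 CPM (SD, n = 3). The annotated exon sequences of the genes in the deposited table were searched for shared 31-base words on either strand. Of the words of *Gdf3*, 9.23% also occur in another gene. Most of these are in *Dppa3*, its neighbour on the opposite strand, with which it shares exon sequence.

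*Cripto* (ENSMUSG00000032494, chr9:110768655-110775292, minus strand) encodes the membrane-anchored EGF-CFC co-receptor that Nodal and GDF3 need to reach the activin receptors. It had 60.4, 63.6 and 56.3 CPM in Control (NT) and 183.1, 186.3 and 188.9 CPM in KD-1. The groups were far apart relative to the spread within either of them. The log2 fold change was 1.63 (SE 0.06, 95% interval 1.49 to 1.77, adjusted p = 1.6e-07, edgeR's quasi-likelihood test). A processed copy of the gene, *Tdgf1-ps1*, holds 6.58% of the 31-base words of *Cripto*, and it was looked up after the values of *Cripto* were seen. Its counts were 32, 79 and 97 in Control (NT), against 220, 184 and 386 in KD-1. It was also called higher, with a log2 fold change of 1.29 (SE 0.19). Reads that the gene and its copy share are assigned between them by probability, so the level of the copy is uncertain.

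*Acvr2b* (ENSMUSG00000061393, chr9:119231103-119271213, plus strand) encodes one of the type II activin receptors. Its level was 23.2, 15.8 and 26.1 CPM in Control (NT) and 15.3, 17.0 and 16.8 CPM in KD-1. The middle Control (NT) library lay among the KD-1 libraries, and the other two lay above all of them. The log2 fold change was -0.41 (SE 0.16, 95% interval -0.78 to -0.03, adjusted p = 0.056, edgeR's quasi-likelihood test) and did not pass. Without the middle Control (NT) library it was -0.60 (adjusted p = 2.9e-05) and passed. In that library the 4876 tested genes with over 8000 bases of exon had a median deviation of -0.07 on the log2 scale from the mean of their group, and the 1471 genes under 2000 bases one of 0.09. *Acvr2b* has 11188 bases of annotated exon, and the part of this length pattern in its value was not tested.

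*Foxh1* (ENSMUSG00000033837, chr15:76552028-76554148, minus strand) encodes the forkhead factor that brings SMAD2 and SMAD3 to DNA. It had 7.38, 10.9 and 9.13 CPM in Control (NT) and 7.87, 7.72 and 7.61 CPM in KD-1. The KD-1 libraries lay between the shallowest and the deepest Control (NT) library. The log2 fold change was -0.25 (SE 0.14, 95% interval -0.57 to 0.07, adjusted p = 0.15, edgeR's quasi-likelihood test). Of its 31-base words, 34.5% occur in other annotated genes, 17.7% in the overlapping *Kifc2* alone, and the sources used here do not say whether strand was used, so that this count is uncertain.

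*Lefty1* (ENSMUSG00000038793, chr1:180762587-180765971, plus strand) and *Lefty2* (ENSMUSG00000066652, chr1:180720635-180726932, plus strand) encode secreted antagonists that block Nodal at its receptors and co-receptor. They are neighbouring copies, separated by 35654 bases. Their coding sequences are both 1104 bases long and match at 1014 positions (91.8%), with 8 identical stretches of 31 bases or more, the longest of 140 bases. The most different window of 60 bases, positions 34 to 93 of both coding sequences, shows how the transcripts can be told apart. It lies at chr1:180762708-180762767 in *Lefty1* and chr1:180720782-180720841 in *Lefty2* (GRCm39, plus strand), and capitals mark the 18 positions at which the copies differ.
Lefty1: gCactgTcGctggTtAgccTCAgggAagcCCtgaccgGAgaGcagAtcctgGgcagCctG
Lefty2: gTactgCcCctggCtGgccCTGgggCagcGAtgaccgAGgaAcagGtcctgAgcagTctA
Over all annotated exons, 24.4% of the 31-base words of *Lefty1* occur in *Lefty2*, and 14.9% of those of *Lefty2* occur in *Lefty1*.

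*Lefty1* had 42.9, 55.0 and 44.6 CPM in Control (NT) and 23.0, 23.3 and 23.4 CPM in KD-1. *Lefty2* had 36.7, 43.4 and 33.5 CPM in Control (NT) and 20.9, 20.6 and 20.3 CPM in KD-1. For both genes, every KD-1 library lay below every Control (NT) library, and the middle Control (NT) library was the highest. *Lefty1* was 2.05-fold lower in KD-1 (log2 fold change -1.03, SE 0.10, adjusted p = 3.1e-05) and *Lefty2* 1.84-fold lower (log2 fold change -0.88, SE 0.10, adjusted p = 8.0e-05), both by edgeR's quasi-likelihood test. Without the middle Control (NT) library, the log2 fold changes were -0.92 for *Lefty1* and -0.77 for *Lefty2*, and both genes were still called. *Lefty1* has 1764 bases of annotated exon. The part in its value of that library's length pattern, given above for *Acvr2b*, was not tested. Because the copies share reads, their separate folds are less certain than the fall of the pair.

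The pair lies on a chromosome that moved the other way. The 871 tested genes of chromosome 1 had a median log2 fold change of 0.49, with 40.2% called higher and 7.81% called lower, whereas the medians of the chromosomes that hold the other 7 genes were between -0.12 and 0.00. Relative to the median of the other genes of chromosome 1, the log2 fold changes were -1.53 for *Lefty1* and -1.37 for *Lefty2*. Of 15 other tested genes that reach within 500 kb of the pair, 7 were called higher, 1 was called lower and 7 were not called, with a median of 0.65. The one called lower was *Stum* (-2.15), and the highest was *Cnih3* (1.70). Apart from *Stum*, none of these neighbours was called lower with the pair. Of the other pathway genes below, *Cfc1* and *Cxcr4*, called higher, and *Inhbb* and *Tgfb2*, called lower, also lie on chromosome 1. The part of the chromosome's shift in their values was not tested.

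**Figure D2:**
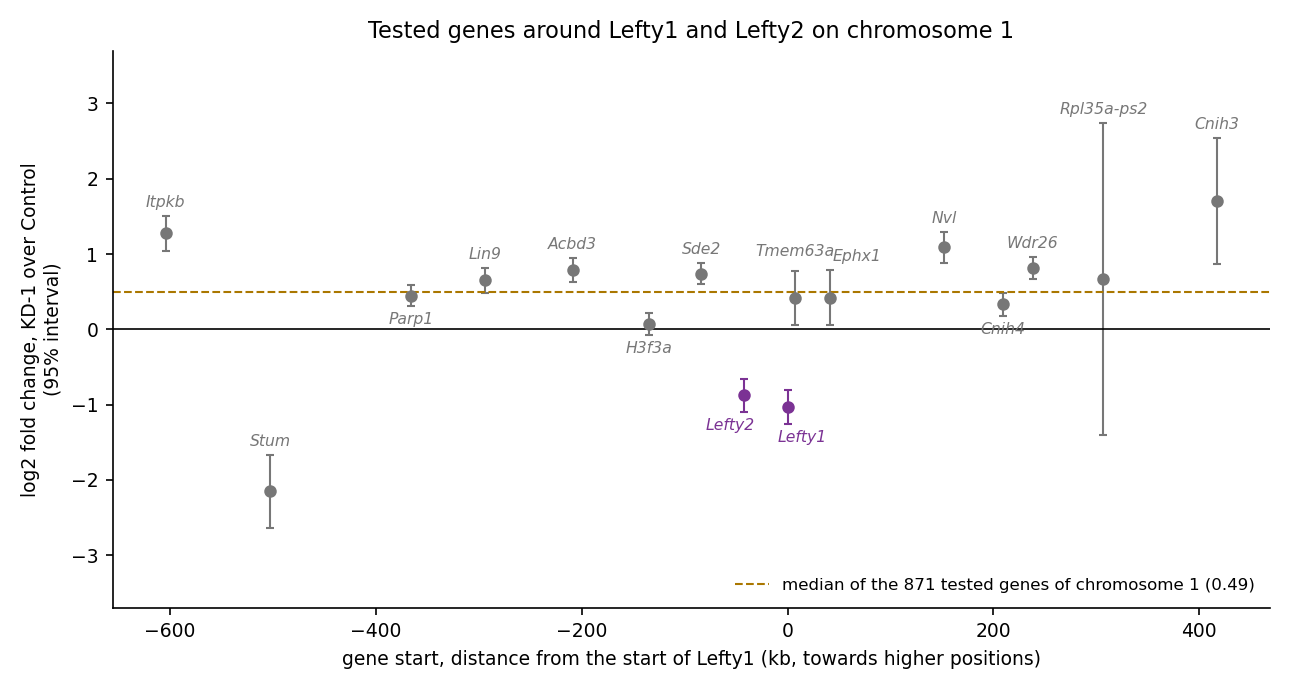
Log2 fold change (KD-1 over Control (NT), edgeR, with 95% interval) of the tested genes reported here around the *Lefty* pair, against the distance of each gene's start from that of *Lefty1* in kb. *Lefty1* and *Lefty2* (purple) lie near -1, while most neighbours (grey) lie above 0 and scatter around the chromosome's median of 0.49 (dashed line).

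*Cer1* (ENSMUSG00000038192, chr4:82799988-82803389, minus strand) encodes Cerberus-like 1, a secreted antagonist of Nodal and BMP made in the anterior visceral endoderm, the definitive endoderm and, later, the presomitic and somitic mesoderm of the embryo. Its counts were 315, 470 and 818 in Control (NT), or 15.2, 13.9 and 14.8 CPM. In KD-1 it had 0, 2 and 8 counts. The Control (NT) libraries were within a narrow range, while in KD-1 the gene was at the edge of detection. The 0 of the shallowest KD-1 library allows a level of up to 0.0716 CPM (3 counts). Pooled over libraries, 1603 counts against 10 gave a ratio of 241 for CPM without TMM scaling (exact 95% interval 131 to 504, which covers counting error only). The fitted log2 fold change was -7.93 (SE 0.31, adjusted p = 1.85e-07, edgeR's quasi-likelihood test), a value that depends on how the fit treats counts near 0. It was -9.09 without the deepest KD-1 library, which holds 8 of the 10 counts, and between -9.09 and -7.52 with each library left out in turn. This was the largest change among the 9 genes.

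*Smad7* (ENSMUSG00000025880, chr18:75500374-75529006, plus strand) encodes the intracellular inhibitory SMAD that blocks and degrades type I receptors of the TGFβ superfamily and is itself induced by the signal. It had 9.02, 10.3 and 8.79 CPM in Control (NT) and 20.2, 20.4 and 19.6 CPM in KD-1. Every KD-1 library was above every Control (NT) library. The log2 fold change was 1.1 (SE 0.09, 95% interval 0.90 to 1.30, adjusted p = 1.2e-05 by edgeR's quasi-likelihood test). The inhibitors therefore did not move as a group, as the 3 secreted ones were lower in KD-1 and the intracellular one was higher.

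The levels of different genes can be set side by side only per length, here as CPM per kb of annotated exon (mean ± SD, n = 3). In Control (NT), *Lefty1* stood first at 26.9 ± 3.72 CPM per kb, and *Cripto* (13.0 ± 0.794) and *Lefty2* (13.0 ± 1.73) followed with overlapping libraries. *Cer1* (8.39 ± 0.374) overlapped with *Gdf3* (7.63 ± 0.961), *Foxh1* (4.87 ± 0.945) with *Nodal* (4.43 ± 0.873), and *Smad7* (1.98 ± 0.175) with *Acvr2b* (1.94 ± 0.475). In KD-1, the order opened with *Cripto* at 40.2 ± 0.631 and *Gdf3* at 23.2 ± 0.331 CPM per kb, ahead of *Lefty1* (13.1 ± 0.113) and *Lefty2* (7.07 ± 0.105). *Nodal* (4.62 ± 0.294) came next, then *Smad7* (4.23 ± 0.0866) and *Foxh1* (4.12 ± 0.0697), whose libraries overlapped, then *Acvr2b* (1.46 ± 0.0815). *Cer1* moved from the fourth place to the last, at 0.0264 ± 0.0264 CPM per kb. *Cripto* and *Gdf3* thus stood above both *Lefty* genes in KD-1, whereas in Control (NT) *Gdf3* stood below both and *Cripto* below *Lefty1*. The place of *Cripto* in Control (NT) depends on the length used. With the length of the first-numbered transcript of each gene, a choice made after seeing the data, *Cripto* (29.8 ± 1.82) and *Lefty1* (29.2 ± 4.04) overlapped at the top of Control (NT), *Gdf3* and *Cer1* changed places, and the order in KD-1 was the same.

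**Figure D3:**
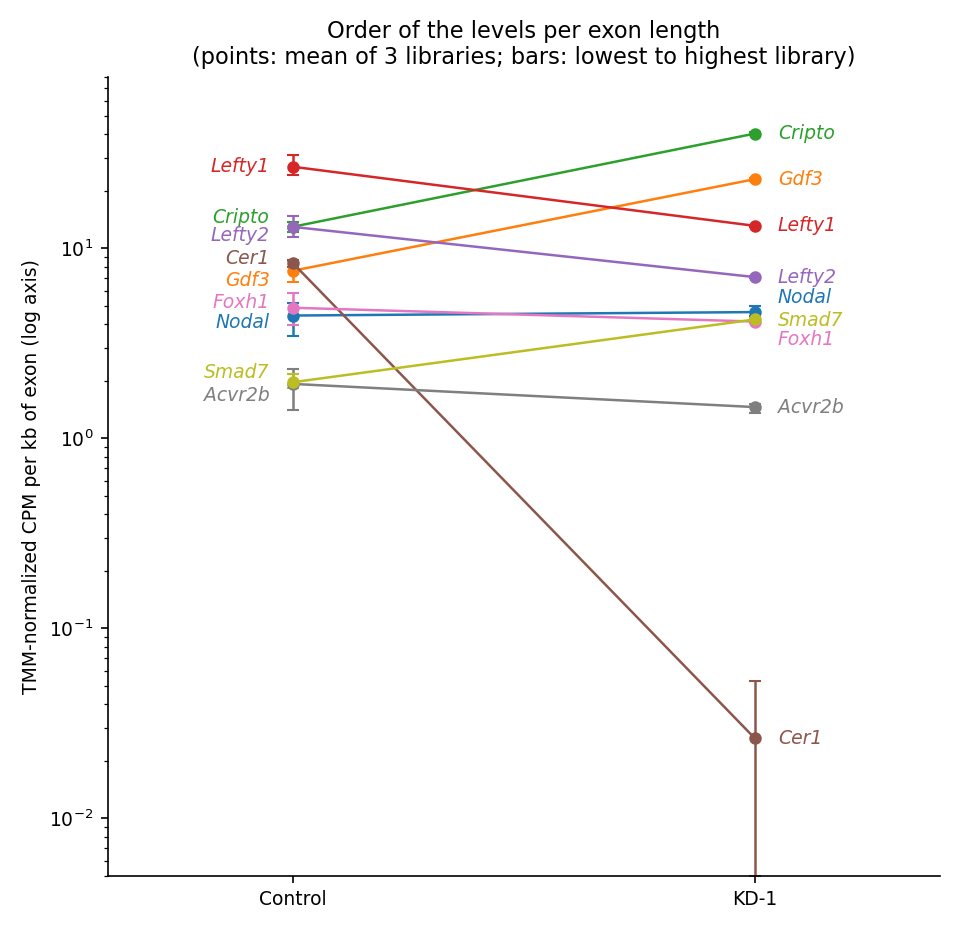
Mean level of each of the 9 genes in Control (NT) and KD-1, as TMM-normalized CPM per kb of annotated exon on a log axis, with bars from the lowest to the highest of 3 libraries. With this length *Cripto* passes *Lefty1*, *Gdf3* passes both *Lefty* genes, and *Cer1* falls from 8.39 to 0.0264, with its lower bar reaching 0, which a log axis cannot show.

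Ratios between genes within a library do not depend on the library's size. Levels of *Lefty1* and *Lefty2* together, per kb, exceeded that of *Nodal* by 3.41, 3.15 and 2.99 on the log2 scale in Control (NT), but by 2.03, 2.21 and 2.15 in KD-1, which is 9.07-fold against 4.38-fold on average. The difference between the groups was -1.05. *Gdf3* exceeded *Nodal* by 1.14, 0.73 and 0.52 in Control (NT) and by 2.24, 2.41 and 2.33 in KD-1, a difference of 1.53. The balance of ligand genes thus lay further towards *Gdf3* in every KD-1 library. For *Acvr2b* against *Acvr2a*, the other type II activin receptor gene, the log2 ratio was -1.16, -1.26 and -0.80 in Control (NT), and in KD-1 -2.13, -1.89 and -1.97, a difference of -0.92. *Lefty1* against *Lefty2* gave 0.95, 1.07 and 1.14 in Control (NT), and in KD-1 0.86, 0.90 and 0.93, a difference of only -0.15 in a pair that shares reads. None of the 4 ratios overlapped between groups. With 3 libraries against 3, each had p = 0.1 in a two-sided exact permutation test, the smallest this design allows, and 0.1 after Benjamini-Hochberg adjustment over the 4.

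**Figure D4:**
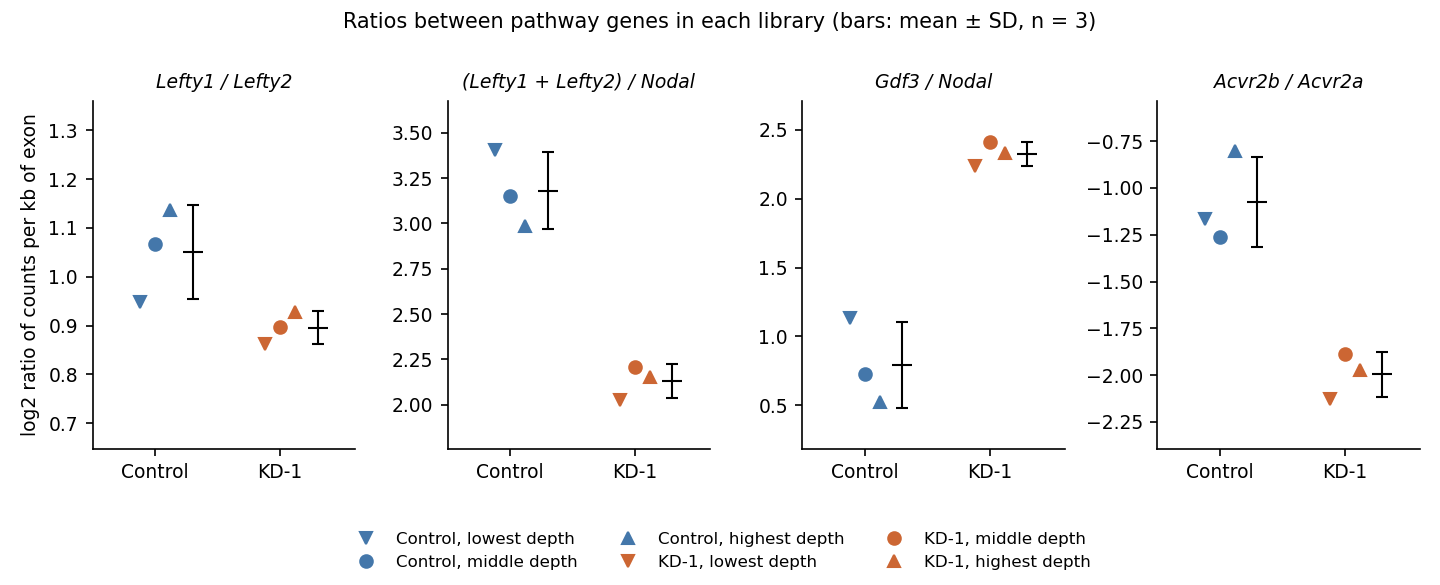
Log2 ratios between pathway genes in each library, from counts per kb of annotated exon, for Control (NT) (blue) and KD-1 (orange), with mean ± SD of 3 libraries. The vertical axes differ between panels and do not start at 0, and the groups are separate in all 4, with the smallest gap for *Lefty1* over *Lefty2*.

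The remaining genes of the pathway were taken from lists of 54 genes, 44 of which were tested. Of these, 7 were called higher, 14 lower and 23 were not called, and the log2 fold changes had a median of -0.03. That is 21 of 44, beside 37.8% of all tested genes, from lists that were also chosen with earlier results of these data known.

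Among ligands and the convertases that cleave them, 6 of 8 were tested, 1 was called higher and 2 lower. *Furin*, a convertase that processes the Nodal precursor, was lower (16.6 to 9.40 CPM, log2 fold change -0.82), and *Pcsk6* (PACE4), which cleaves the same precursor, was higher (9.61 to 17.8 CPM, 0.88). *Inhbb*, which encodes an activin subunit, was lower at a low level (1.18 to 0.271 CPM, -2.14). *Inhba*, *Inhbe* and *Inha* were not called.

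Among receptors and co-receptors, 3 of 4 were tested. *Acvr1b*, the type I receptor gene for Nodal, had 20.3 and 19.7 CPM (log2 fold change -0.05, edgeR adjusted p = 0.60). *Acvr2a* had 40.6 and 58.8 CPM (log2 fold change 0.54, edgeR adjusted p = 0.0021), under the fold required for a call, which it passed without the shallowest Control (NT) library (0.64) and with library size as the only scaling (0.60). *Cfc1*, which encodes Cryptic, the other EGF-CFC co-receptor, was called higher from 0, 0 and 6 counts in Control (NT) and 10, 13 and 34 counts in KD-1 (adjusted p = 0.022, edgeR), and it was not called without the middle or the deepest KD-1 library. The type I receptor gene *Acvr1c* was near 0 in both groups and was not tested.

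Among extracellular inhibitors other than those above, 5 of 6 were tested. *Ncln*, which encodes the Nodal-modulating protein nicalin, was called lower (25.8 to 15.3 CPM, log2 fold change -0.76). *Dand5*, which encodes the Cerberus relative that antagonizes Nodal at the node, had 1.02 and 1.05 CPM, with a log2 fold change of 0.05. The activin-binding *Fst*, *Tmeff1* and *Nomo1* were not called.

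All 14 genes of SMAD transducers and nuclear partners were tested. *Smad3* was called lower (98.4 to 57.8 CPM, log2 fold change -0.77, SE 0.09, adjusted p = 1.1e-04, edgeR), whereas *Smad2* had 79.3 and 93.9 CPM (0.25, adjusted p = 0.057) and *Smad4* 72.8 and 71.8 CPM (-0.02, adjusted p = 0.79). Of the SMAD co-repressor genes, *Ski* was lower (89.8 to 34.6 CPM, -1.38), while its relative *Skil* (56.3 to 98 CPM, 0.80) and *Tgif1* (61.8 to 115 CPM, 0.89) were higher. *Drap1*, whose product restrains FOXH1, was lower (61.2 to 39.9 CPM, -0.62), near the fold required, and it was not called without the middle Control (NT) library (-0.50), without the deepest KD-1 library (-0.52), with library size as the only scaling (-0.56) or with at least 10 counts required in every library (-0.58). Neither *Smad2* nor *Smad4* nor the other 7 genes were called.

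Genes that Nodal signalling is known to induce in the mesendoderm went both ways. Of 14 listed, 8 were tested, of which 3 were called higher and 3 lower. *Otx2*, a homeobox gene of the epiblast and the anterior neural plate, rose from 4.34 to 42.3 CPM (log2 fold change 3.30). The chemokine receptor gene *Cxcr4* rose from 13.7 to 34.3 CPM (1.32) and *Eomes*, which encodes a T-box factor of the primitive streak, from 2.84 to 4.72 CPM (0.72). *Lhx1*, a LIM homeobox gene of the streak and the mesoderm, fell from 3.63 to 0.398 CPM (-3.22). The BMP antagonist gene *Chrd* fell from 2.84 to 1.19 CPM (-1.27). *T* (Brachyury, adjusted p = 0.17, edgeR) and *Hhex* (adjusted p = 0.23, edgeR) were not called, and *Gsc*, *Mixl1*, *Foxa2*, *Sox17*, *Gata6* and *Mesp1* had too few counts to be tested.

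Of the related TGFβ branch, all 8 listed genes were tested, 5 were called lower and none higher, with a median log2 fold change of -0.85. The ligand genes *Tgfb3* (9.06 to 0.925 CPM, -3.28) and *Tgfb2* (-1.03) fell, as did *Ltbp1* (65.2 to 12.4 CPM, -2.40), whose product holds latent TGFβ in the matrix. *Ltbp3* and *Tgfbr2* were the other two called.

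**Figure D5:**
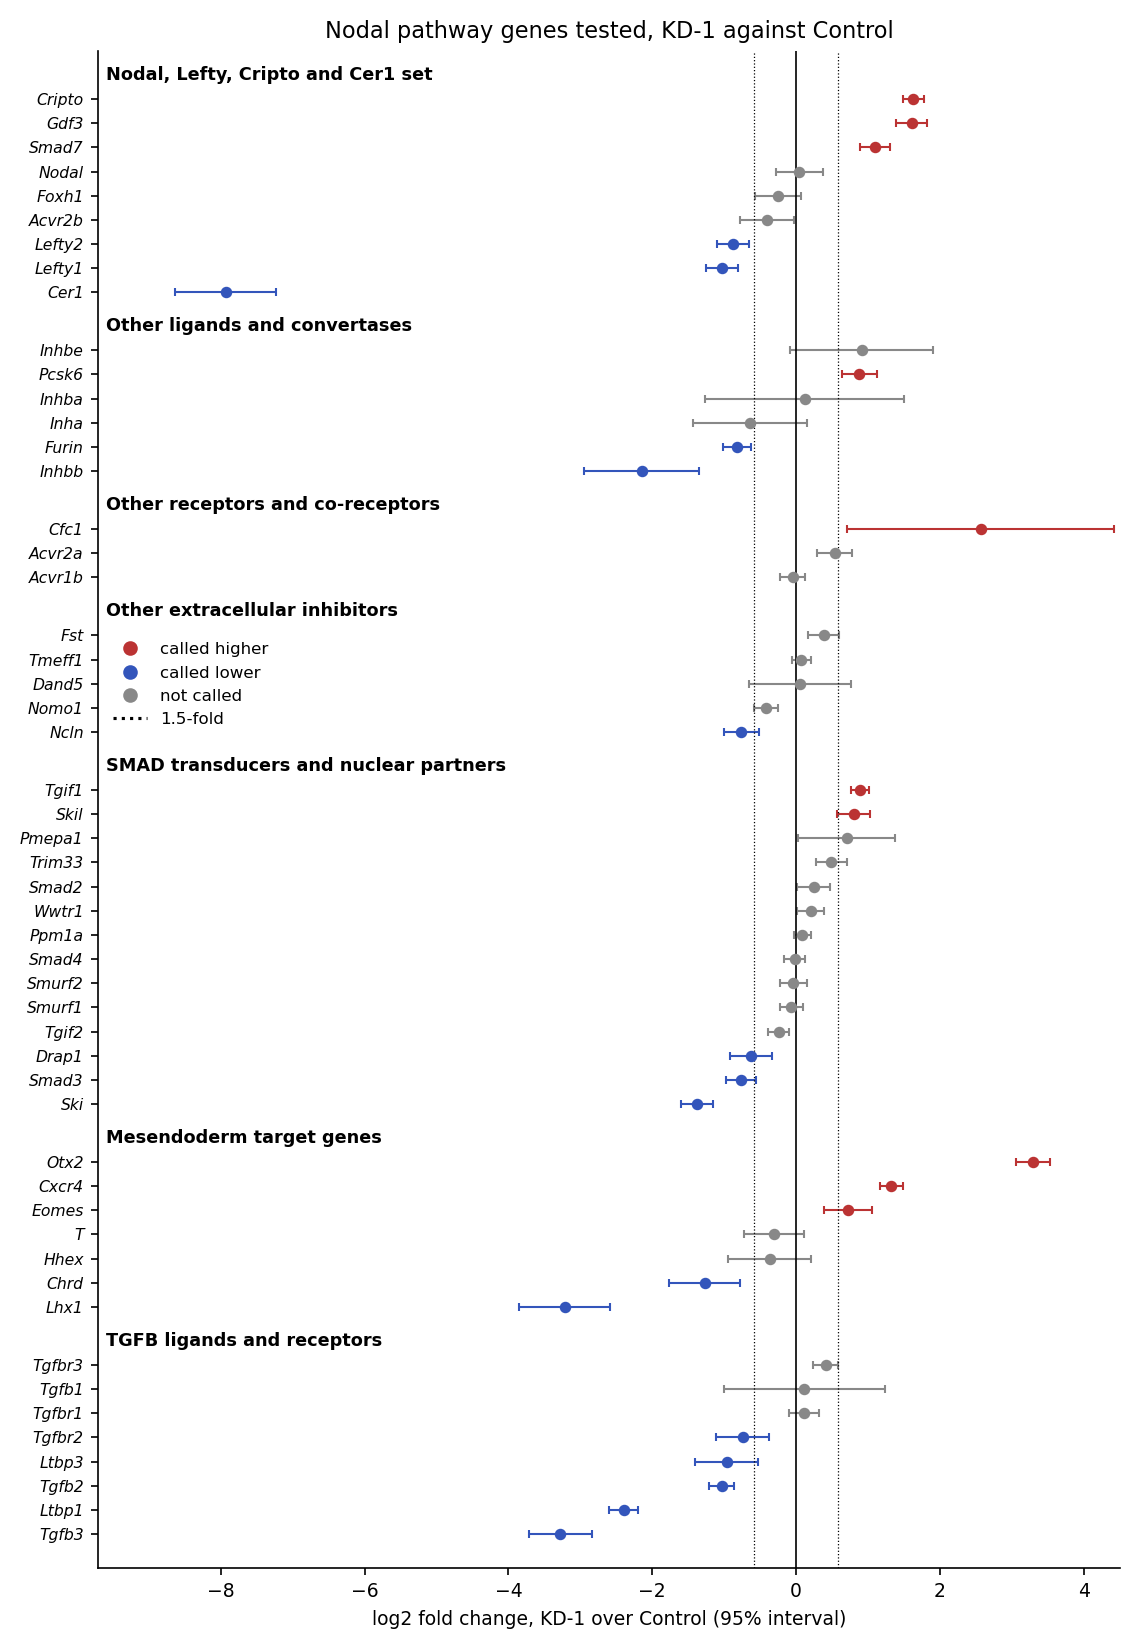
Log2 fold change (KD-1 over Control (NT), edgeR) with 95% interval for the 9 genes and the other tested genes of the pathway lists that are reported here, grouped by role. Red points were called higher, blue lower and grey not called, and dotted lines mark 1.5-fold. *Cer1* lies far to the left of every other gene, and 9 of the 14 SMAD transducers and partners are grey.

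Markers of cell types that use these genes moved as well, and their part in the results was not tested. The gene said to lead a list is the most abundant per kb, while sums are in CPM, in which long genes weigh more. *Gdf3* and *Cripto* are expressed in pluripotent cells. The summed level of 12 naive pluripotency markers was 547, 509 and 550 CPM in Control (NT) and 1763, 1729 and 1765 CPM in KD-1, 3.27-fold higher, and 10 of the 12 were called higher. *Nanog*, the most abundant of them per kb, had a log2 fold change of 1.67. Of 6 primed pluripotency markers, led by *Sfrp2*, 6 were called higher, with sums of 73.0, 81.8 and 75.3 against 185.6, 177.2 and 179.1 CPM. Of 6 primordial germ cell markers, led by *Tfap2c*, 4 were called higher, with sums between 48.1 and 48.5 CPM against sums between 114.2 and 115.0 CPM. *Prdm14* and *Dppa3* stand in both the naive and the germ cell lists, *Otx2* stands in both the primed list and the mesendoderm targets, and *Dppa3*, which shares exon sequence with *Gdf3*, was not called.

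Beside *Cer1*, the 8 somite markers summed to 516, 596 and 538 CPM in Control (NT) and to 46.1, 45.4 and 46.0 CPM in KD-1, 12.01-fold lower. All 7 of them that were tested were called lower, with *Meox1*, the most abundant per kb, at 371 against 0.423 CPM (log2 fold change -9.77). The 7 presomitic mesoderm markers, led by *Dll1*, summed to 51.0, 62.3 and 55.0 CPM in Control (NT) and to 40.05, 41.9 and 41.9 CPM in KD-1, with 4 of 6 tested called lower. Of these, *Hes7* was not called without the shallowest KD-1 library (adjusted p = 0.060, edgeR) nor *Tbx6* without the deepest (adjusted p = 0.064, edgeR). Markers of anterior primitive streak and definitive endoderm, led by *Cxcr4*, summed to 21.6, 21.7 and 22.4 CPM in Control (NT) and to 42.4, 40.8 and 39.6 CPM in KD-1, of which *Cxcr4* alone made up 13.7 and 34.3 CPM on average. All 8 genes of this list also stand among the mesendoderm targets above. Of 8, 4 were tested, 2 were called higher and 1 lower. The rest had too few counts to be tested and did not move together. *Sox17*, an endoderm marker, had 4, 9 and 9 counts in Control (NT), against 0, 0 and 1 in KD-1. *Mixl1* had 2, 0 and 5 counts in Control (NT), against 16, 13 and 20 in KD-1. *Foxa2* had 2, 1 and 1, against 6, 5 and 9, and *Gsc* had 0, 0 and 7, against 1, 1 and 10. Visceral endoderm markers summed to between 0.386 and 0.866 CPM in Control (NT) and to between 1.14 and 1.26 CPM in KD-1, with *Apoa4* at 0 in all libraries, *Ttr* and *Afp* at 2 counts or fewer, *Rbp4* the most abundant per kb and 1 of 2 tested called higher. That one, *Apob*, was not called without the deepest KD-1 library (adjusted p = 0.057, edgeR). *Rbp4* had 4, 3 and 16 counts in Control (NT), against 14, 7 and 17 in KD-1. *Cubn* had 4, 14 and 25 counts in Control (NT), against 23, 24 and 36 in KD-1. Node and notochord markers were low in both groups (4.33 ± 0.645 and 3.96 ± 0.191 CPM in sum), with *Noto* at 0 in all libraries, *Dand5* the most abundant per kb, and of 3 tested 1 called higher and 1 lower. *Foxa2* and *Chrd* of this list also stand among the mesendoderm targets, and *Dand5* among the inhibitors. Of 7 neural markers, led by *Tubb3*, 5 were tested and 4 called higher, with sums between 34.8 and 38.4 CPM in Control (NT) and between 164.8 and 168.2 CPM in KD-1.

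To place the 9 genes among others, the nearest profiles over the 6 libraries were taken, by Euclidean distance between log2 levels centred on their mean. The candidates were the 12666 genes whose log2 CPM had a mean above 0 over the libraries, which leaves out many genes near 0 in 1 group. The distance is driven by the difference between the groups, so near genes are mostly genes of a like fold change. *Cripto* was among the 3 nearest of *Gdf3* (distance 0.149), after *Enpp2* (0.0777), which encodes autotaxin. The genes nearest to *Cripto* were *Lratd2* (0.0822) and *Tmsb4x* (0.0867), which encodes thymosin beta 4. *Smad7* lay nearest to *Tpd52* (0.0549) and to *Tfap2c* (0.0831), which encodes a transcription factor of germ cell precursors. *Lefty1* lay nearest to *Igfbp4* (0.0717), which encodes a secreted binding protein of insulin-like growth factors, and *Lefty2* to *Ube2r2* (0.0913). None of the 12666 candidates had a profile close to that of *Cer1*. Among its 3 nearest were *Fap* (2.78) and the somite gene *Meox1* (2.91), at distances that counts near 0 in KD-1 make imprecise. For the 3 genes not called, the first in order were *Pitpnm1* for *Nodal*, *Shmt2* for *Foxh1* and *Pkd1* for *Acvr2b*.

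RefSeq promoters, from 250 bases before to 50 bases after the start on GRCm38.p6, were given for 4 of the 9 genes, *Cer1*, *Cripto*, *Acvr2b* and *Nodal*. They were searched on both strands for the FOXH1 motif AATNCACA and for the SMAD box CAGAC. The letters of the motifs can overlap, but the FOXH1 motif had no match in these windows. Those of 1 gene that fell and 1 gene that rose are shown, with the SMAD box in capitals, for *Cer1* at chr4:82885102-82885401 (minus strand) and for *Cripto* at chr9:110946109-110946408 (minus strand).
Cer1: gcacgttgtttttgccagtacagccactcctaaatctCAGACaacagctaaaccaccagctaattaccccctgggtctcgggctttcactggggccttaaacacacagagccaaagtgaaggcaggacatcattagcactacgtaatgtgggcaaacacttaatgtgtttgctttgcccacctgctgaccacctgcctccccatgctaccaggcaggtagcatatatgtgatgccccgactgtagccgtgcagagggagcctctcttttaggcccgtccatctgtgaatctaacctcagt
Cripto: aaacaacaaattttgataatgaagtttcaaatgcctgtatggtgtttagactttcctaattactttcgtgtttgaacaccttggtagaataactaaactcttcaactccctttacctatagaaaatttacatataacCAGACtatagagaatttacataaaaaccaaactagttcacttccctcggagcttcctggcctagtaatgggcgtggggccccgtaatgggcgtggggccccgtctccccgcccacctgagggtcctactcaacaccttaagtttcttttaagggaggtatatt
The SMAD box occurs 1 time in each of these promoters, at position -213 from the start in *Cer1* and -113 in *Cripto*, and 1 time in that of *Acvr2b*, and it is not in that of *Nodal*. It occurs in 49.6% of all 32851 promoters of this length. The letters of the FOXH1 motif are in none of the 4 windows and in 3.6% of all promoters. A gene that rose, one that fell and one that was not called thus each hold the box.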

How the data were processed

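Bulk RNA-seq libraries of day 5 gastruloids, 3 of Control (NT) and 3 of KD-1, were analysed from the table of expected counts that the authors deposited, estimated per Ensembl gene identifier, in whole numbers and without normalization. The submitters' processing notes name bcl2fastq and Salmon 1.1. The paper names a Gencode gene model without its species series, so exon lengths and shared sequence taken here from GENCODE vM39 may differ from those behind the counts. The genome build, the use of strand and the summing of transcripts to genes are not given in the sources used here. The labels call the control wild type and the paper calls it non-targeting, which is the name used.

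Symbols, positions and exon lengths came from GENCODE vM39 (GRCm39), which matched 35222 of 35565 identifiers. Genes were filtered with filterByExpr, scaled by TMM and tested with edgeR 4.0.16 (robust quasi-likelihood test, R 4.3.3), with Benjamini-Hochberg adjustment over 15110 genes. The script was tested on simulated data. Totals of 20982249 to 85561026 counts put the limit of 3 counts between 0.143 and 0.0351 CPM before TMM scaling. Intervals on counts cover counting error only.

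Members and lists were chosen with earlier results of these data known. All members were named, with up to 3 called rises and 3 falls per pathway list, *Acvr1b*, *Acvr2a*, *Smad2*, *Smad3*, *Smad4*, the most abundant gene and up to 3 others of each marker list, and the 3 nearest profiles per member. Alternatives were DESeq2 1.42.0, limma-voom (limma 3.58.1), other scalings, filters and thresholds, and leaving out each library. Some genes that are counted in the totals are not reported here by name.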

Additional observations from a re-analysis of the deposited data

How the results depend on the processing

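Of 154 values of the 9 genes under alternative settings, 151 kept their direction and their side of the threshold. *Lefty2* was not called when an absolute log2 fold change over 1 was required, *Acvr2b* was called without the middle Control (NT) library, and *Nodal* ranged from -0.087 to 0.15 with 1 library left out, changing sign without the shallowest Control (NT) library. *Cer1* was not tested when 10 counts were required in every library. The number of the 9 genes called was 6, between 5 and 7 over all settings. Of 792 values of the other named genes, 760 were unchanged in this sense, 18 were no longer called, 3 became called and 11 reversed, all of the last in genes that were not called. *Acvr1b* was 0.0091 with library size only. *Smad4* was 0.011 with DESeq2, 0.0052 with RLE scaling, 0.0074 with TMM without chromosomes 1 and Y, 0.037 with library size only and 0.024 when each library needed 10 counts, and between -0.072 and 0.0073 with 1 library left out. *Dand5* was between -0.13 and 0.36 with 1 library left out. Over all genes, 5709 calls became 3274 when the log2 fold change had to pass 1 in size and 9597 with no fold threshold, and the 21 calls among other pathway genes became 11 at the former. With each library left out in turn, calls ranged from 5179 to 6116 over all genes. The 4 ratios kept their direction under every alternative run. No paired analysis was possible because the column names do not carry the replicate numbers of the labels. Depth limits, among others, *Cer1*, *Cfc1*, *Apob*, *Hes7*, *Tbx6* and the 10 pathway genes with too few counts to be tested.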
